A study of Mus musculus with 8 samples.

Results

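The genes described here are 10 immediate early genes in mouse Paneth cells (PCs), which sit at the bottom of small intestinal crypts and secrete antimicrobial peptides. The members were taken by symbol as a fixed list of 55414 genes in the count table: Fos, Fosb, Fosl2, Jun, Junb, Jund, Egr1, Atf3, Ier2 and Ier3. All 10 were found, and 9 passed the filter on low counts, which Fosb did not. RNA was sequenced in bulk from 8 libraries of PCs that had been sorted from a cell suspension of the small intestine by fluorescence-activated cell sorting. The mice were C57BL/6J, and the study describes its samples as PCs of individual mice. For 7 days, the mice of 4 libraries drank Milli-Q water, which is purified, and those of the other 4 drank water supplemented with 25 mM zinc sulfate. Every mouse then received the cytokine TNF (tumor necrosis factor), which drives inflammation, and tissue was taken 3 hours later. As the samples are described, all 8 libraries share the TNF injection, the tissue dissociation and the sort, and none without them was analysed here. How far any of these steps raised the genes thus cannot be told apart. The comparisons that the samples allow are zinc against water, and zinc replicate 3, a library already seen to stand apart, against the other 7.

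Immediate early genes are transcribed within minutes of a stimulus, without new protein synthesis. Growth factors, cytokines such as TNF, and stress act through MAP kinases, serum response factor (SRF) with its ternary complex partners, CREB and NF-kB on their promoters, and the short-lived transcripts mostly decline again within hours. The products of the Fos and Jun families pair through leucine zippers to form the transcription factor AP-1. Enzymatic dissociation of tissue at warm temperature is itself a known trigger, so Fos, Jun and Egr1 are commonly read as signs of handling in sorted cells.

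Promoter windows are shown for 4 members as examples of different places of zinc replicate 3, from a level among those of the other libraries (Fos) to one far below them (Junb and Ier3), with Ier2 between. Each window runs from 250 bases before to 50 bases from the start of the canonical transcript in the reference genome GRCm39, 300 bases, 5′ to 3′ on the strand of the gene. Capitals mark motif matches: TATAAA in Fos and Junb, an NF-kB site in Fos and Ier3, and the cAMP response element (CRE) in Ier2. The Fos window is chr12:85520408-85520707 (plus strand), that of Junb is chr8:85705298-85705597 (minus strand), that of Ier2 is chr8:85389434-85389733 (minus strand), and that of Ier3 is chr17:36132318-36132617 (plus strand).
Fos: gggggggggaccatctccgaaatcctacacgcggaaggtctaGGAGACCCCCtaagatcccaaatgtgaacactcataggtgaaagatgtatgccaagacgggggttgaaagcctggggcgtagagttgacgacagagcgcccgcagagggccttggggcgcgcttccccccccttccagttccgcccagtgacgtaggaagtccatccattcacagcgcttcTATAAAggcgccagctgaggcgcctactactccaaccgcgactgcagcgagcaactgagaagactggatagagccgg
Junb: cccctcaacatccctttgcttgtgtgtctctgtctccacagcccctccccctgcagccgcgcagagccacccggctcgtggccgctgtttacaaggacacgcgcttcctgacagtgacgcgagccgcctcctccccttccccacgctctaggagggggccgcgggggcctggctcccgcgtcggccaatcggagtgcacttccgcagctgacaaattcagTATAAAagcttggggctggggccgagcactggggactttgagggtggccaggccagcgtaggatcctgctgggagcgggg
Ier2: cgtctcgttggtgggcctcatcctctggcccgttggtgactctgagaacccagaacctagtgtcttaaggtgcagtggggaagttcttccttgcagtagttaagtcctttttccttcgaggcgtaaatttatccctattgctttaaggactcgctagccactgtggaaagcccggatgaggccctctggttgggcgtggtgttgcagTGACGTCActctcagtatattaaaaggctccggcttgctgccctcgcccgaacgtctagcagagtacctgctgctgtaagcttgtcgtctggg
Ier3: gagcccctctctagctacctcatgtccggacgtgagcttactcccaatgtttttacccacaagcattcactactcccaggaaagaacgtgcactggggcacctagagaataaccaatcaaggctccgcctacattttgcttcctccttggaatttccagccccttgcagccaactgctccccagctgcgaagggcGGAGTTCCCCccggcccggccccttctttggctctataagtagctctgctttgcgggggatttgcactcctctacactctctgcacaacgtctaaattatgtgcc

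The search covered the windows of all 10 members and of 21770 protein-coding genes. An NF-kB site, searched on both strands by its consensus, was found in Fos (first base at -208 from the start site), Fosb (-182) and Ier3 (-55), in each case read on the opposite strand, and in 4.87% of all windows. The CRE (TGACGTCA, the same on both strands) was found in Ier2 (-43) and Jund (-214), and in 2.44% of all windows. TATAAA, searched on the strand of the gene, was found in Fos (-27) and Junb (-30), and in 8.95% of all windows. Neither the AP-1 site TGANTCA, searched on both strands and present in 7.14% of all windows, nor the CArG box that SRF binds, also searched on both strands and present in 1.54%, matched in a member window. These matches are letters in a window, and the serum response element of Fos is known to lie farther upstream than the window reaches.

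The libraries held 10623658 to 15101627 counts. Levels are given in CPM, the counts of a gene relative to the TMM-scaled total of its library. Where a gene had 0 counts, its level may be up to that of 3 counts, which was 0.179 to 0.369 CPM depending on the library, for counting error only. Abundant PC transcripts were high in all libraries, with Lyz1 (lysozyme) at 133100 CPM or more and the alpha-defensin Defa24 at 135300 CPM or more in each. The 11 PC markers all passed the filter, which does not ask for counts in every library. Zinc replicate 3 correlated with the other libraries at a Pearson r of 0.838 to 0.896 (across genes, which are not independent). Each other library had a highest r of 0.967 to 0.984 with its closest partner. The zinc label was followed unevenly by the zinc-induced metallothionein Mt1, which was at 41.0, 44.3, 68.2 and 36.0 CPM in water replicates 1 to 4 and at 254, 107, 29.5 and 45.0 CPM in zinc replicates 1 to 4. Mt2 was at 172, 49.8, 8.35 and 4.03 CPM in the same zinc libraries and at 6.50, 7.09, 22.9 and 4.00 CPM in the water libraries (log2 fold change 2.57, SE 1.02, edgeR adjusted p 0.485). The zinc exporter Slc30a1 had a log2 fold change of 2.47 (SE 0.791), with the same adjusted p, and was at 4.78, 3.23, 1.97 and 0.484 CPM in zinc replicates 1 to 4.

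The members spanned a wide range of levels, and Junb led in every library but zinc replicate 3. Levels of different genes were compared as CPM per kilobase of the canonical transcript. By the median of the 7 libraries other than zinc replicate 3, the order was Junb (250.5), Jund (106), Ier2 (63.5), Egr1 (38.5), Fosl2 (37.4), Jun (20.8), Fos (19.4), Ier3 (17.1), Atf3 (9.58) and Fosb (0.0634 CPM per kilobase). Over the 4 water libraries the ranges of neighbors overlapped for Egr1 (30.7 to 50.4) and Fosl2 (34.1 to 44.7), for Jun (20.8 to 26.8) and Fos (19.1 to 24.8), and for Fos and Ier3 (17.1 to 27.4 CPM per kilobase). The other neighbors did not overlap. In zinc replicate 3 the order was another: Jund led at 57.7, followed by Ier2 at 32.3, Junb at 21.9 and Fos at 19.2 CPM per kilobase, and Fosl2, at 4.86, lay below Jun and Fos.

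**Figure D1:**
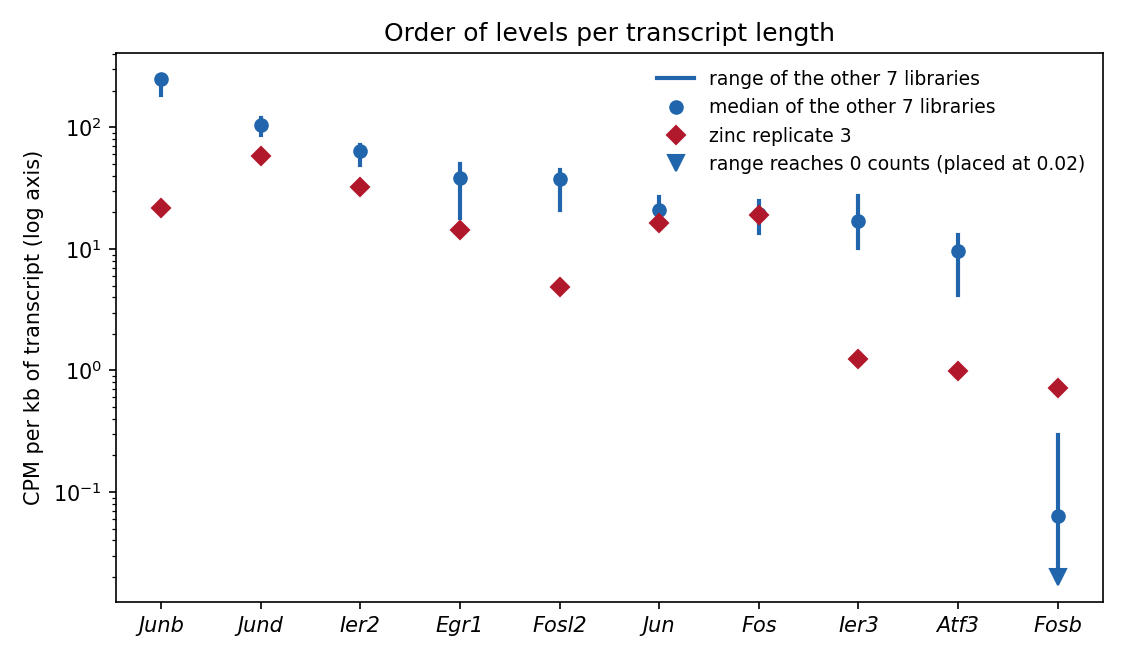
Level of each member as CPM per kilobase of transcript (log axis), ordered by the median (blue points) of the 7 libraries other than zinc replicate 3, with their range (blue lines) and zinc replicate 3 as red diamonds. Junb stands highest at a median of 250.5 but at 21.9 in zinc replicate 3, whereas Fos lies at 19.2 there, inside its range elsewhere. A blue triangle marks that the range of Fosb reaches 0.

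The Fos family members bind DNA only as partners of another zipper protein, usually a Jun. Fos (ENSMUSG00000021250, chromosome 12, 85520658 to 85524047, plus strand) was at 47.5, 52.5, 45.7 and 40.5 CPM in water replicates 1 to 4 and at 28.7, 28.4, 40.6 and 41.1 CPM in zinc replicates 1 to 4. The groups met only at their edge, with zinc replicates 3 and 4 level with water replicate 4. Fosl2 (ENSMUSG00000029135, chromosome 5, 32292707 to 32315186, plus strand), also called Fra-2 and a Fos relative without the strong activation domain of Fos, was at 312, 294, 261 and 238 CPM with water. With zinc it was at 146, 238, 33.9 and 265 CPM, so 1 library lay far under the rest and zinc replicates 2 and 4 lay within the water range. Fosb (ENSMUSG00000003545, chromosome 7, 19036621 to 19043976, minus strand) was near the limit of detection, with 0, 4, 1 and 3 counts in the water libraries and 12, 10, 39 and 9 counts in the zinc libraries. The groups did not overlap, and zinc replicate 3 was highest at 2.74 CPM, against 0 to 1.12 CPM in the other 7.

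The Jun family supplies the partners, of which Jun is the strongest activator, Junb often restrains it, and Jund is in most tissues made without a stimulus. Jun (ENSMUSG00000052684, chromosome 4, 94937271 to 94940459, minus strand) was at 66.2, 82.6, 75.2 and 85.3 CPM with water and at 52.6, 59.0, 52.4 and 61.8 CPM with zinc. The highest zinc library lay below the lowest water library, and zinc replicate 3 was level with zinc replicate 1. Junb (ENSMUSG00000052837, chromosome 8, 85701113 to 85705359, minus strand) was close to constant with water, at 454, 453, 462 and 459 CPM. With zinc Junb was at 338, 396, 39.7 and 430 CPM, all below water, and zinc replicate 3 lay 8.51-fold under the lowest other library. Jund (ENSMUSG00000071076, chromosome 8, 71151599 to 71153265, plus strand) was at 169, 176, 146 and 179 CPM with water and at 179, 156, 96.1 and 201 CPM with zinc. Apart from zinc replicate 3, the groups overlapped, with zinc replicate 4 above every water library and water replicate 3 below every other zinc library. Jun, Junb, Jund and Ier2 are each annotated with 1 exon. Prdx2 overlaps Junb on the opposite strand and had 2847 counts over the 8 libraries against 38762 for Junb. Junos opposite Jun had 18 counts and Gm11175 opposite Jund had 125, so with the strand setting of the counting not given in the sources used here, the reads of such pairs may not be fully separated.

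Egr1 and Atf3 are transcription factors outside the Fos and Jun families. Egr1 (ENSMUSG00000038418, chromosome 18, 34992876 to 34998049, plus strand), a zinc finger protein that follows MAP kinase and SRF activity, was at 213, 227, 173 and 138 CPM with water. With zinc Egr1 was at 80.9, 117, 64.0 and 190 CPM, so 3 libraries lay below water and zinc replicate 4 within it. Atf3 (ENSMUSG00000026628, chromosome 1, 190902493 to 190950241, minus strand), a stress-induced zipper protein that can pair with Jun proteins and often represses, was at 26.1, 19.0, 17.9 and 24.6 CPM with water. With zinc Atf3 was at 8.34, 18.2, 1.97 and 22.6 CPM. Its spread thus came from zinc replicates 1 and 3, and the other zinc libraries were among the water libraries.

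Ier2 and Ier3 share a name but no sequence family. Ier2 (ENSMUSG00000053560, chromosome 8, 85387960 to 85389483, minus strand), a nuclear protein, was at 109, 110, 91.6 and 96.8 CPM with water and at 75.4, 83.1, 49.2 and 107 CPM with zinc. Zinc replicate 4 again lay with the water libraries and the other 3 below them. Ier3 (ENSMUSG00000003541, chromosome 17, 36132568 to 36133815, plus strand), a target of NF-kB that modulates cell survival, was at 26.1, 21.1, 31.3 and 19.5 CPM with water. With zinc Ier3 was at 11.5, 17.4, 1.40 and 14.7 CPM, all below water. The level in zinc replicate 3 rests on 20 counts for Ier3 and 28 for Atf3.

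**Figure D2:**
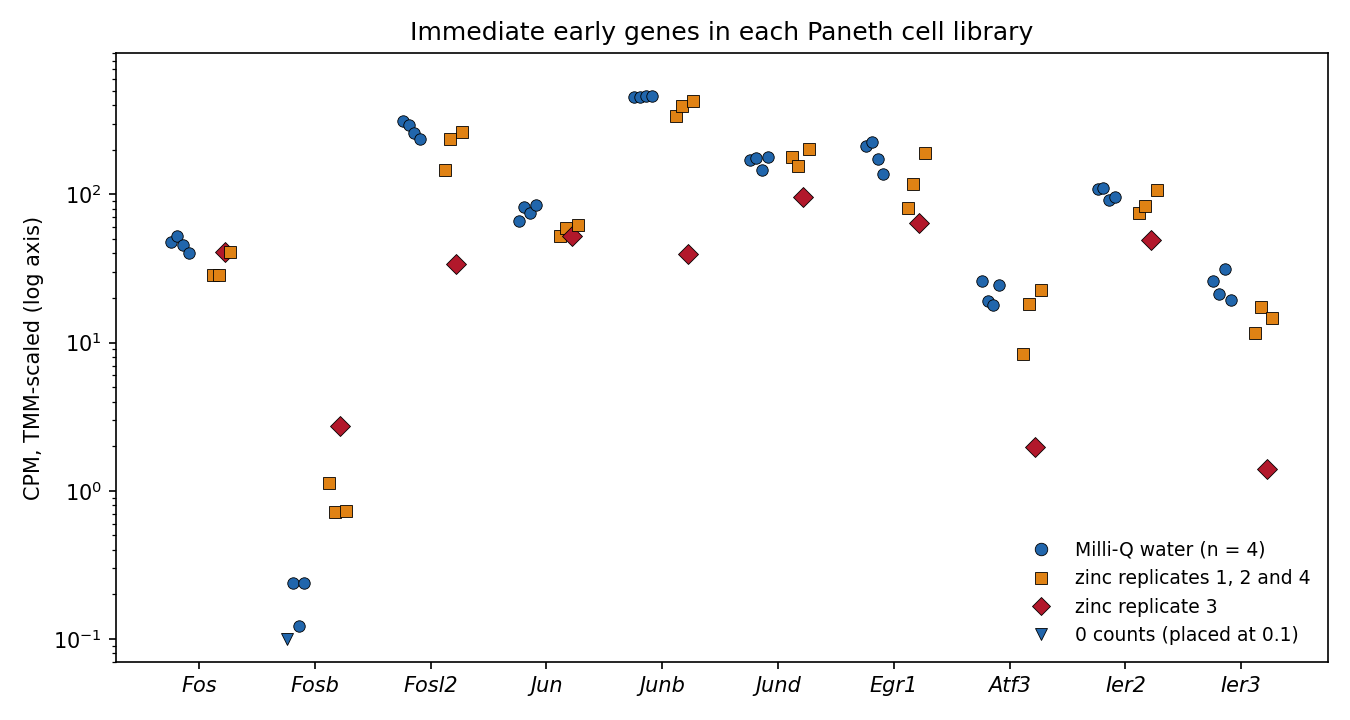
Level of each member in each library in CPM (TMM-scaled, log axis), with water libraries as blue circles, zinc replicates 1, 2 and 4 as orange squares and zinc replicate 3 as red diamonds. Zinc replicate 3 drops to 39.7 CPM for Junb and 1.40 CPM for Ier3, lies among the others for Fos at 40.6 CPM, and is highest for Fosb at 2.74 CPM.

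Zinc replicate 3 differed from the other libraries to unequal degrees across the members. It lay far below the other 7 libraries for Ier3, Junb, Atf3 and Fosl2, moderately below for Egr1, Ier2 and Jund, and close to them for Jun and Fos. Against the median of the other 7, the level was 13.9-fold lower for Ier3, 11.4-fold for Junb, 9.67-fold for Atf3 and 7.70-fold for Fosl2. For these 4, zinc replicate 3 was also 8.21-fold, 8.51-fold, 4.24-fold and 4.30-fold below the lowest of the other 7. The level was 2.7-fold lower for Egr1, 1.97-fold for Ier2 and 1.83-fold for Jund. Jun was 1.26-fold lower and equal to the lowest other library to within 1.004-fold, and Fos was at 40.6 CPM against a median of 41.1 CPM. As 1 library has no replicate, these differences have no test.

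Set against all genes, 8 of the 9 tested members were lowest in zinc replicate 3, where 30% of the 10707 tested genes were. With upper-quartile scaling 7 were, since Jun then ranked above the lowest library and Fos lay 0.13 above the median on the log2 scale. None of the 9 was highest in zinc replicate 3, where 29.8% of the tested genes were. At least 1 below the median of the other 7 on the log2 scale were 5 of 9 members, against 10.8% of all tested genes. On that scale the median difference was -1.43 over the 9 members and 0.03 over all tested genes, whose 5th to 95th percentiles ran from -1.68 to 1.46. Ier3 (-3.73), Junb (-3.51), Atf3 (-3.22) and Fosl2 (-2.94) lay outside this range.

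Ratios between members within a library do not depend on its scaling. In zinc replicate 3 Junb was at 0.757 of Jun, against 5.38 to 6.96 in the other 7 libraries. Fosl2 was at 0.836 of Fos, against 5.08 to 8.39. These are ratios of CPM, and per kilobase Fosl2 changed its order with Fos while Junb was still above Jun. The ratio of Atf3 to Jun was 0.0375 against 0.159 to 0.394, that of Ier3 to Ier2 was 0.0285 against 0.137 to 0.341, and that of Egr1 to Fos was 1.58 against 2.82 to 4.63. Of all counts on the 10 members, Junb took 10.4% in zinc replicate 3 and 31.6% to 36.7% elsewhere, whereas Jund took 25.2% and 11.2% to 19.5%. The summed level of the members was 381.9 CPM in zinc replicate 3, 1281 to 1435 CPM in the water libraries and 920.9 to 1334 CPM in the other zinc libraries.

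Several other gene groups moved with this library. Of 23 TNF and NF-kB targets, 21 were tested and 19 were lowest in zinc replicate 3, with a median difference of -3.99 on the log2 scale against the other 7. Their summed level was 210.3 CPM there, 1891 to 2200 CPM with water and 1950 to 1978 CPM in the other zinc libraries. Icam1, Cxcl1, Cxcl2 and Cxcl10 had 0 counts in zinc replicate 3, and Tnf and Ccl20 had 1 each. Of the tested targets that were not lowest there, Tnfaip2 was highest, at 6.035 CPM against 1.039 to 3.761 CPM. Birc2 lay among the others, at 15.02 CPM against 14.83 to 21.83 CPM. Whether this library had the TNF exposure that its label gives was not tested. Enterocyte markers were all highest in it (12 of 12, summed 240 CPM against 26.5 to 78.3 CPM elsewhere), as were 7 of 10 crypt stem cell markers (summed 1278 CPM against 653.9 to 1353 CPM). Enteroendocrine and tuft markers were highest for 6 of 10 (summed 17.5 CPM against 1.72 to 13.2 CPM), with Gcg and Cck at 0. Goblet cell markers were highest for 3 of 10, where 29.8% of all tested genes were highest. The sum of the goblet cell markers (10770 CPM) lay within the range of the others (10460 to 15540 CPM). Immune and stromal markers were highest for 0 of 15 (summed 13.6 CPM against 14.2 to 28.7 CPM). Apart from Lyz2, with 187 counts in zinc replicate 3, each of these markers had 0 to 40 counts over all 8 libraries, too few to place this library: Ptprc, Cd3e, Cd68, Pdgfra and Igkc had 0 counts in it, Csf1r, Itgam and Pecam1 had 1, Cd79a and Vim had 2, and Itgax, Col1a1 and Col3a1 had 0 in every library. PC markers summed to 474500 CPM, within 397700 to 746200 CPM in the others. Of these, Kit (161 CPM against 27.7 to 57.8) and Pnliprp2 (4004 CPM against 2339 to 3533) were highest and Reg3g lowest (662 CPM against 2000 to 7697). The part of these cells and of the TNF targets in the levels of the immediate early genes was not tested, and in bulk RNA fewer cells that express a gene and less RNA per cell cannot be told apart.

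**Figure D3:**
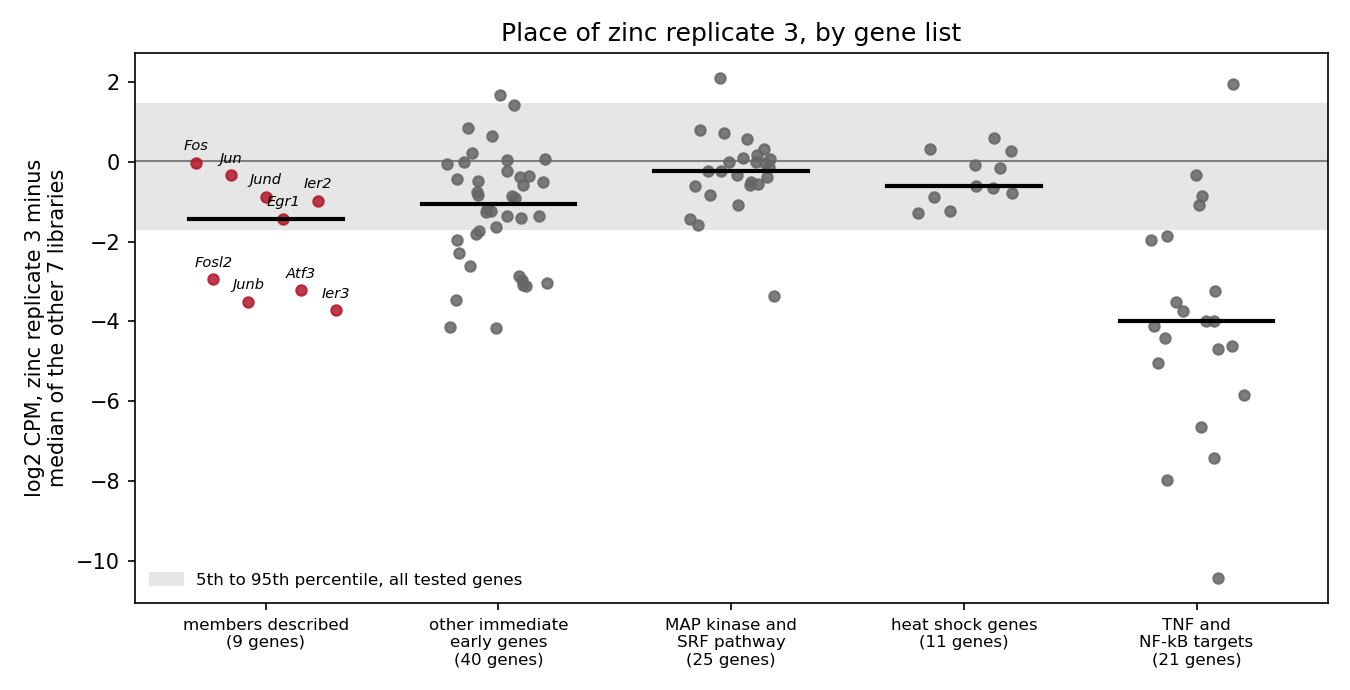
Difference in log2 CPM between zinc replicate 3 and the median of the other 7 libraries for each tested gene (points) of 5 gene lists, with list medians (black bars) and the 5th to 95th percentile of all tested genes (gray band, -1.68 to 1.46). Of the members, Fosl2, Junb, Atf3 and Ier3 lie below the band and 5 inside it, and TNF and NF-kB targets lie lowest, at a median of -3.99. Points of genes with 0 counts in zinc replicate 3 depend on the prior count and are no bound.

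Zinc against water was then tested over all 8 libraries. All 9 tested members were lower with zinc, where 49.2% of all tested genes were, but none passed the test. By the edgeR quasi-likelihood test 0 of 9 members had an adjusted p under 0.05, as did 0% of the 10707 genes. Before adjustment 1092 of these genes had a p under 0.05, and after it DESeq2 called 4 genes and limma-voom 0. At an unadjusted p under 0.05, 3 members (Fos, Jun and Egr1) were lower, against 3.78% of all tested genes. Their number was 4 by DESeq2 and 5 by limma-voom with sample weights, and neither passed a member after adjustment. Over all genes and in either direction the number was 1286 by DESeq2, with 18720 tested, and 1324 of 10707 by limma-voom. The groups did not overlap, with zinc lower, for 3 of the 9 members (Jun, Junb and Ier3), against 3.12% of all tested genes in that direction. The median log2 fold change was -0.60 over the 9 members and 0.01 over all tested genes.

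The 3 members with an unadjusted p under 0.05 and Ier3, the member with the lowest estimate, were as follows. Fos averaged 46.5 ± 4.96 CPM in the water group against 34.7 ± 7.09 CPM in the zinc group (mean ± SD over 4 libraries), with a log2 fold change of -0.42 (SE 0.167). Jun averaged 77.3 ± 8.56 and 56.4 ± 4.72 CPM (log2 fold change -0.45, SE 0.137), and Egr1 averaged 188 ± 40.2 and 113 ± 55.9 CPM (-0.73, SE 0.315). For all 3 the adjusted p by edgeR was 0.485. The 95% intervals of these 3 members lay below 0, at -0.79 to -0.05 for Fos, -0.76 to -0.15 for Jun and -1.43 to -0.03 for Egr1, before any adjustment for the number of genes. Ier3 had a log2 fold change of -1.12 (SE 0.514, interval -2.26 to 0.02), from 24.5 ± 5.30 to 11.3 ± 7.00 CPM.

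For the other 5 tested members the intervals reached from below to above 0. Junb averaged 457 ± 4.11 CPM in the water group and 301 ± 178 CPM in the zinc group (log2 fold change -0.60, interval -1.76 to 0.55), so that the spread was almost wholly that of the zinc libraries. Fosl2 had a log2 fold change of -0.69 (-1.73 to 0.35) and Atf3 of -0.78 (-1.94 to 0.38). Ier2 was at -0.37 (-0.84 to 0.10), and Jund, at -0.08 (-0.56 to 0.39), was the member nearest to 0. The edgeR adjusted p of these 5 ran from 0.520 for Ier2 to 0.884 for Jund. For Junb, Fosl2 and Atf3 the intervals still held log2 changes below -1.

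Fosb went the other way, with 8 counts over the water libraries and 70 over the zinc libraries. In the fit without a filter on low counts it had a log2 fold change of 3.04 (SE 0.770) and an unadjusted p of 0.000843, but an edgeR adjusted p of 0.316 over 18747 genes. Of the 70 zinc counts, 39 came from zinc replicate 3.

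Leaving out zinc replicate 3 made most estimates smaller and more precise. None of the members passed then either, as 0% of 10755 genes did by edgeR. An unadjusted edgeR p under 0.05 was found for 3 members (Fos, Jun and Ier3), against 867 of the 10755 genes in either direction. Lower with zinc were 8 of 9 members, where 49.4% of all tested genes were, and the exception was Jund, which turned to 0.10 (interval -0.18 to 0.38). The median over the 9 members was -0.41. Jun changed little, to -0.41 (SE 0.130), and Fos moved farther below 0, to -0.50 (SE 0.155). Ier3 moved to -0.73 (SE 0.190) and Egr1 to -0.53 (SE 0.247). Junb moved to -0.23 (SE 0.125), Fosl2 to -0.35 (SE 0.186), Atf3 to -0.41 (SE 0.262) and Ier2 to -0.20 (SE 0.141). Without zinc replicate 4, the zinc library nearest to water, Egr1 was at -1.11, Atf3 at -1.21, Ier2 at -0.56 and Jund at -0.23.

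**Figure D4:**
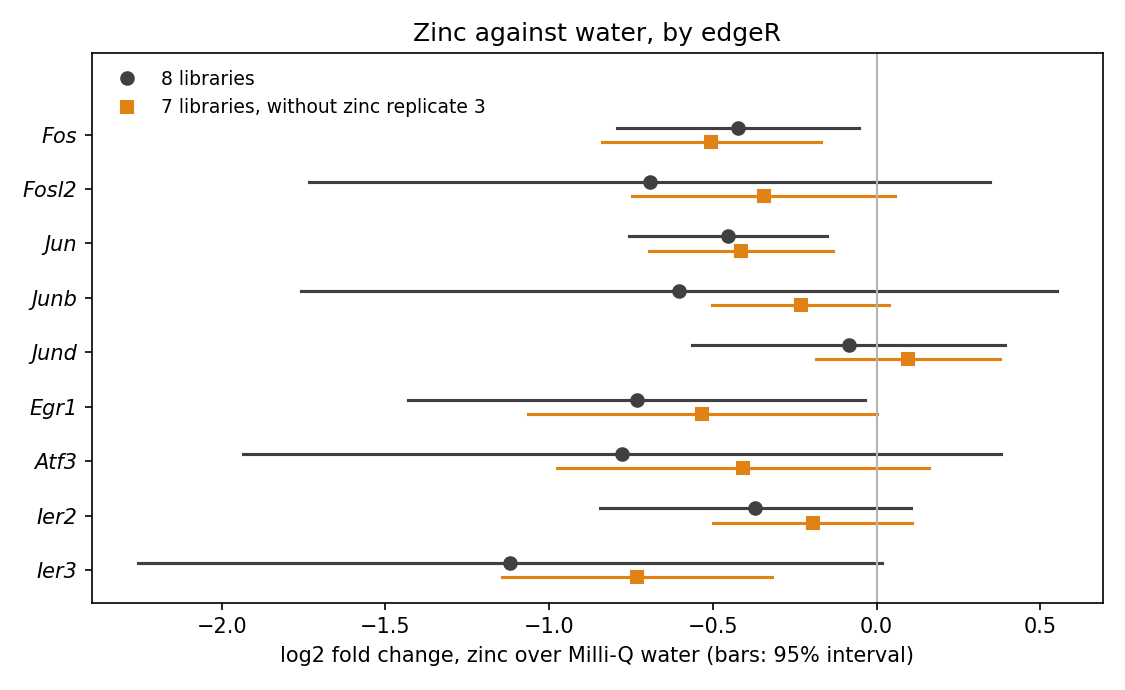
Log2 fold change of the 9 tested members, zinc over Milli-Q water, by edgeR with 95% intervals (bars), over 8 libraries (gray circles) and without zinc replicate 3 (orange squares). All 9 estimates are below 0 with 8 libraries, and without zinc replicate 3 the intervals of Junb and Fosl2 shrink and Jund moves to 0.10.

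Among the other 7 libraries, zinc replicate 1 was lowest for 7 of the 9 tested members (Fosl2, Jun, Junb, Egr1, Atf3, Ier2 and Ier3), where it was lowest for 18.4% of all tested genes. It was also lowest for 17 of 40 other immediate early genes. This library had the highest Mt1 (254 CPM) and Mt2 (172 CPM), and whether these are related was not tested. Of the remaining members, Fos was lowest in zinc replicate 2 and Jund in water replicate 3.

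A wider list of 50 other immediate early genes, of which 40 were tested, leaned the same way with less uniformity. With zinc 26 were lower and 14 higher, 0 were called by edgeR, 6 had an unadjusted p under 0.05, and the median log2 fold change was -0.37. The lowest estimates were those of Csrnp1 (-1.02, SE 0.334), a nuclear protein, Cebpd (-1.0, SE 0.572), a C/EBP transcription factor of the acute phase, and Zfp36 (-0.91, SE 0.485), which promotes decay of cytokine mRNAs. The highest were Dusp6 (1.00, SE 0.313), a phosphatase of the kinase ERK, Nr4a3 (0.79, SE 0.729), an orphan nuclear receptor, and Hbegf (0.53, SE 0.643), a ligand of the EGF receptor. Without zinc replicate 3 the median was -0.17, with 25 lower and 15 higher, 0 called and 10 with an unadjusted p under 0.05.

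In zinc replicate 3, 24 of these 40 genes were lowest and 3 highest, and 20 lay at least 1 below the median of the other 7 on the log2 scale. Over all tested genes these shares were 30%, 29.8% and 10.8%. Nfil3, a zipper repressor, was at 2.46 CPM against 14.9 to 54.4 CPM, and Cebpd at 2.88 CPM against 35.4 to 76.1 CPM. Fosl1 (Fra-1), the remaining Fos family gene, had 0 counts there and at most 2.09 CPM elsewhere. Highest in this library were Dusp6 at 23.3 CPM against 5.68 to 14.1 CPM, the growth arrest gene Gadd45a at 3.58 CPM against 0.750 to 2.08 CPM, and Phlda1 at 63.2 CPM against 30.0 to 50.9 CPM. Immediate early genes were thus found on both sides in 1 library. Egr4, Ccn2 and Ptgs2 had 0 counts in all 8 libraries.

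The upstream pathway, 26 genes of MAP kinases, their kinases, SRF and its partners, and CREB, showed little net shift. Of the 25 tested, 12 were higher and 13 lower with zinc, 0 were called by edgeR, 1 (Mapk14) had an unadjusted p under 0.05, and the median was -0.06 (0.10 without zinc replicate 3). The lowest were Crem (-0.95, SE 0.528), a cAMP-responsive factor, Map2k3 (-0.41, SE 0.261), a kinase of p38, and Mapk8 (-0.30, SE 0.153), which encodes JNK1. The highest were Map2k6 (0.96, SE 0.481), also a kinase of p38, the SRF partner Elk3 (0.60, SE 0.336), and Mapk14 (0.40, SE 0.164), which encodes p38 alpha. In zinc replicate 3 the 3 lowest against the other 7 were Crem at 2.46 CPM (22.9 to 52.9 CPM elsewhere), Elk4 at 7.72 CPM (16.3 to 28.3) and Map2k3 at 25.7 CPM (59.9 to 78.4). The 3 highest were Map2k6 at 32.6 CPM (5.56 to 11.2), Elk3 at 3.02 CPM (0.985 to 2.58) and Mapk14 at 27.5 CPM (14.9 to 21.3). Map2k3 and Map2k6, which both encode kinases that act on p38, thus stood on opposite sides. Srf itself was at 14.0 CPM against 15.1 to 20.4 CPM.

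Heat shock genes, another group that warm dissociation is known to raise, were near the detection limit for the classical inducible pair. Hspa1a was at 0 to 0.375 CPM and Hspa1b at 0.143 to 0.880 CPM over the 8 libraries. Since the treatment of reads with several matches is not given, reads that match both genes may be missing here. The low levels are thus no measure of how far the pair was expressed. Of 14 heat shock genes 11 were tested, 8 lower and 3 higher with zinc, 0 called by edgeR and 1 with an unadjusted p under 0.05, with a median log2 fold change of -0.09. In zinc replicate 3, 6 of the 11 were lowest, where 30% of all tested genes were. The median difference of the 11 was -0.61, and the cochaperone gene Bag3 was at 32.8 CPM against 77.4 to 96.6 CPM.

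For Fos and Egr1, the tested genes with the most similar profile over the 8 libraries were found by the root mean square difference of log2 CPM after each gene was centered. For Fos these were Atg101 (0.131), Cdk8 (0.134) and Slc19a2 (0.135), where the median over all tested genes was 0.436. For Egr1 they were Ero1a (0.143), Trip10 (0.175) and Il1rap (0.203), against a median of 0.693. No member was among these neighbors, which were picked by search from 10707 genes over 8 libraries.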

How the data were processed

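Raw counts of reads by Ensembl gene identifier were deposited as a single table with a column for each library, and the sample labels gave the groups. Per the labels, the kit selected mRNA and kept the strand. The submitters' processing notes name FastQC 0.12.0, STAR 2.7.10a, DESeq2 and mm39 with no role or order. The counting tool, annotation release, strand setting and treatment of reads with several matches are not given in the sources used here. Identifiers were matched to the GENCODE M39 annotation of GRCm39 (54749 of 55414 matched, and the 665 others held 0.00443% of counts).

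Both groups were compared with the edgeR 4.0.16 quasi-likelihood F-test (R 4.3.3), using TMM factors and the default expression filter, which left 10707 genes (99.889% of counts). The Benjamini-Hochberg adjustment ran over all genes tested, with a threshold of 0.05. The biological coefficient of variation over these genes was 0.269. CPM is on TMM-scaled library sizes, log2 CPM has a prior count of 1, and SE means the standard error of the fitted log2 value. Each library counted as 1 replicate, as no pair of the 28 had a chi-square per degree of freedom under 6.05. The members, the gene lists and the interest in zinc replicate 3 were chosen with earlier results of these data known. Named genes were the members, for Fos, Egr1 and Atf3 the 3 nearest profiles (those of Atf3 are not reported here), for the lists of other immediate early genes and of MAP kinase and SRF genes any gene called and the 3 extremes in each direction, and Mt1, Mt2 and Slc30a1. Srf, Bag3, the heat shock pair, the chemokine genes, Tnfaip2, Birc2, Kit, Pnliprp2 and Reg3g were chosen after their values were seen.

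On counts simulated for 4 against 4 libraries, with 10580 genes tested, edgeR called 138 genes, of which 4 had not been changed. It recovered 94% of simulated log2 changes of 2 and 43% of those of 1. Other choices tried were upper-quartile factors, DESeq2 size factors, leaving out alpha-defensin genes, a transcript length correction, no filter, a filter of 1 CPM in 4 samples, DESeq2 1.42.0, limma-voom (limma 3.58.1) with sample weights, a block for the replicate number, libraries left out in turn, and Milli-Q water libraries 3 and 4 left out together.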

Additional observations from a re-analysis of the deposited data

Results flagged for a closer look

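In the 28 groups of 4 libraries searched (the members, their sum and the zinc-induced genes), 1 library stood far from the other 3, by the gap to the nearest of them over the range of the group, and chance gives about 1 in 20 such groups. It was Milli-Q water replicate 3 for Mt2, at 22.89 CPM, against 7.087 CPM in the nearest and 3.998 CPM in the farthest of the other water libraries (gap over range 0.836).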

How the results depend on the processing

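Of 238 values recomputed under an alternative, 236 were classed as unchanged, by rules that differed with the kind of value. The log2 fold change of a member had to keep its direction and its side of the threshold. A count had to stay close in ratio, so 7 in place of 8 members lowest in zinc replicate 3 passed. The median of the members had to move by less than 0.602, the spread between libraries of a group. That margin is wide, as the median itself was -0.60. By the DESeq2 Wald test 4 genes were called (Lrp1, Cd74, Slc14a1 and Ms4a12, none of them a member), against 0 by edgeR, and the cause was not tested. The log2 fold change of Jund ran from -0.23 (without zinc replicate 4) to 0.10 (zinc replicate 3 left out), and the cause of this turn was not tested. With 1 library left out the genes called, the members called and the other immediate early genes called each stayed at 0, and the median log2 fold change of the members lay between -0.83, when zinc replicate 4 was left out, and -0.41, when zinc replicate 3 was. The replicate numbers were not treated as pairs. Across genes, the deviations of water and zinc libraries of the same number correlated at -0.02 to 0.03. This does not settle whether libraries of the same number shared any handling. With the replicate number as a block 0 genes were called, 802 had an unadjusted p under 0.05, and the median of the members was -0.85. Without Milli-Q water libraries 3 and 4, in which deviations fell with transcript length (Spearman rho across genes -0.333 and -0.34), all 9 members were still lower. In counts simulated at this depth with 4 libraries a group, changes of 1 on the log2 scale were recovered less often than not. The simulation drew each library independently, without a shift of many genes in 1 library as in zinc replicate 3. Its rates may thus not hold for these libraries. Fosb could not be tested after the filter.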

Other observations

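Other zipper proteins that can pair with Fos and Jun proteins were fixed as a list of 16, of which 12 were tested. With zinc 8 were lower and 4 higher, 0 were called by edgeR, 0 had an unadjusted p under 0.05, and the median log2 fold change was -0.04. In zinc replicate 3, 5 of the 12 were lowest, where 30% of all tested genes were. Jdp2, which represses AP-1 sites, had the lowest estimate of the list (-0.99, SE 0.671) and was at 0.982 CPM in zinc replicate 3, against 1.59 to 15.6 CPM in the others. Jdp2 was named after its values were seen.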
